A study of Mus musculus with 6 samples.

Results

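The chaperone system described here consists of the Hsp70 and the Hsp90 of the endoplasmic reticulum (ER) and the proteins that drive them. Its 10 members are Hspa5, which encodes the Hsp70 Grp78 (BiP), Hsp90b1, which encodes the Hsp90 Grp94, the exchange factors Hyou1 and Sil1, the J protein genes Dnajb9, Dnajb11, Dnajc1, Dnajc3 and Dnajc10, and Sdf2l1. They were chosen by function, with earlier results of these data known, and all 10 were among the 16490 genes tested. The members are read by 13 array probes, 1 for each of 7 members and 2 for each of the other 3.

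RNA came from neuro2a (N2a) cells, a mouse neuroblastoma line that grows as a culture of neuron-like tumour cells. The study asked which genes respond in these cells when NF-Y, a transcription factor of 3 subunits, is knocked down. The Vector group (n = 3 arrays) had been transfected with a control EmGFP-miR RNAi vector, read from its title as the empty one. The YAYC group (n = 3 arrays) had received RNAi of the same vector kind against the subunits NF-YA and NF-YC. RNA was taken 2 days later. Each array was hybridised with labelled cDNA of 1 sample in a single colour. The methods name both an empty control and a non-targeting miR control (NT2), without saying which these arrays had. Taken as the empty one, the control carried no non-targeting miR. A response to miR expression as such then cannot be told apart from a response to loss of NF-Y. Cells were transfected as a pool of a single line, the methods name no sorting of the transfected N2a cells, and no source used here says whether replicates were separate cultures, so p-values measure the spread between these samples only, which may be technical.

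Grp78 binds unfolded chains as they enter the ER, J proteins bring it substrates and start its ATP cycle, and the exchange factors reset it by releasing ADP. Grp94 takes over a narrower set of clients at a later step, among them integrins, Toll-like receptors and insulin-like growth factors. When unfolded proteins build up, ATF6 and XBP1 raise many of these genes, ATF6 through the ER stress element (ERSE), a promoter sequence in which NF-Y holds the CCAAT part and ATF6 the CCACG part.

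Because NF-Y binds CCAAT, the promoters of the members were searched for it, and those of the members with 4 or more CCAAT motifs are printed with that of Dnajc1, a member with none. Sequences are the RefSeq bases upstream of the transcript start on mouse build GRCm38.p6, 5′ to 3′ on the strand of the gene, and capitals mark CCAAT on either strand, so that ATTGG is a CCAAT read from the other strand.
Hspa5, chr2:34771840-34772089, plus strand: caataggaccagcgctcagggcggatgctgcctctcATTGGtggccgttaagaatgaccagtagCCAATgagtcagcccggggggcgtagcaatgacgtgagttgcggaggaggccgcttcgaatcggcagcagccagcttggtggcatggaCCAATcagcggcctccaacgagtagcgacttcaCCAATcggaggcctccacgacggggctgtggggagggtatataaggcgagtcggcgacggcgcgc
Hsp90b1, chr10:86705445-86705694, minus strand: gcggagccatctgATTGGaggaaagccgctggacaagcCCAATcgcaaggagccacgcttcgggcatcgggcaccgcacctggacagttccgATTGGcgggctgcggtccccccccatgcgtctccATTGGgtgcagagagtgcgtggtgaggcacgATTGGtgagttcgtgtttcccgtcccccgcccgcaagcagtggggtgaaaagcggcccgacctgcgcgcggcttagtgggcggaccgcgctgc
Sdf2l1, chr16:17132384-17132633, minus strand: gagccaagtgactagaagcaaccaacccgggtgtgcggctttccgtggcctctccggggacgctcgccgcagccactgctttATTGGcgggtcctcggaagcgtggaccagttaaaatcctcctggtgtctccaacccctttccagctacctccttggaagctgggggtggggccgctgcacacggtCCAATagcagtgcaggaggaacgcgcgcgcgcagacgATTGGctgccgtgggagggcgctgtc
Dnajb11, chr16:22857595-22857844, plus strand: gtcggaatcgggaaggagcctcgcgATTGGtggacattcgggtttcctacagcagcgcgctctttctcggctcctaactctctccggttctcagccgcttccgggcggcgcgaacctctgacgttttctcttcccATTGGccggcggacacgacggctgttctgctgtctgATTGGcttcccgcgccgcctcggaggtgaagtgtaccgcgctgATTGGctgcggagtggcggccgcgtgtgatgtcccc
Dnajc1, chr2:18392831-18393080, minus strand: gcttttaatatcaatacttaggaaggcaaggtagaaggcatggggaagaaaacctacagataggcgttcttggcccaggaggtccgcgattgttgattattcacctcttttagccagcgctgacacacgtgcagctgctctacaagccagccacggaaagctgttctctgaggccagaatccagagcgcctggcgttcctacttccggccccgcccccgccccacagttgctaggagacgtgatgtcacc

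The motifs were searched as exact letters on both strands in windows from 250 bases before to 50 bases after the start, of which 8 members had one. Hyou1 and Sil1 had none. CCAAT lay in 12289 of 32851 windows of the same length (37.4%) and in those of 6 of the 8 members. At least 4 CCAAT motifs lay in 1.06% of all windows and in those of 4 members. The Hsp90b1 window held 6, the Dnajb11 window 5, and the Hspa5 and Sdf2l1 windows 4 each. In Hsp90b1, Dnajb11 and Sdf2l1, 1 motif each lay downstream of the start and so outside the bases printed above. In Hsp90b1 the first letters of neighbouring motifs upstream of the start lay 25, 54, 34 and 31 bases apart, and in Hspa5 28, 88 and 33. Dnajc3 had 2 CCAAT motifs, Dnajb9 had 1, and Dnajc1 and Dnajc10 had 0 in this window.

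The ERSE was searched as CCAAT, 9 bases of any kind and CCACG, so each match holds 1 of the CCAAT motifs counted above. It lay in 39 windows (0.119%), among them those of Hspa5, Hsp90b1 and Dnajc3. The Hsp90b1 window was the only one of the 32851 with 2 matches. A shorter form, ERSE-II (ATTGG, 1 base of any kind and CCACG, where ATTGG is again a CCAAT on the other strand), lay in 12 windows (0.0365%), among them that of Dnajb11. These short matches are printed below, each read along its own CCAAT or ATTGG strand with the fixed letters in capitals. The capitals are alike because the search required them, and only the lowercase spacers were free to differ.
Hspa5, ERSE, chr2:34772025-34772043: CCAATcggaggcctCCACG
Hsp90b1, ERSE, chr10:86705638-86705656: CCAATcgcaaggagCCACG
Hsp90b1, ERSE, chr10:86705533-86705551: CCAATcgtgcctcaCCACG
Dnajc3, ERSE, chr14:118937827-118937845: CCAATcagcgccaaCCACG
Dnajb11, ERSE-II, chr16:22857852-22857862: ATTGGcCCACG
The Hspa5 match began 65 bases upstream of the start and the Dnajc3 match 105 bases upstream. The Hsp90b1 matches spanned bases 212 to 194 and 107 to 89 upstream, the latter on the strand opposite to the gene, and the Dnajb11 match lay 8 to 18 bases downstream of the start. Sdf2l1 had 4 CCAAT motifs and no exact match to either element. The map of the promoter windows shows these positions beside the RNA changes.

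**Figure D1:**
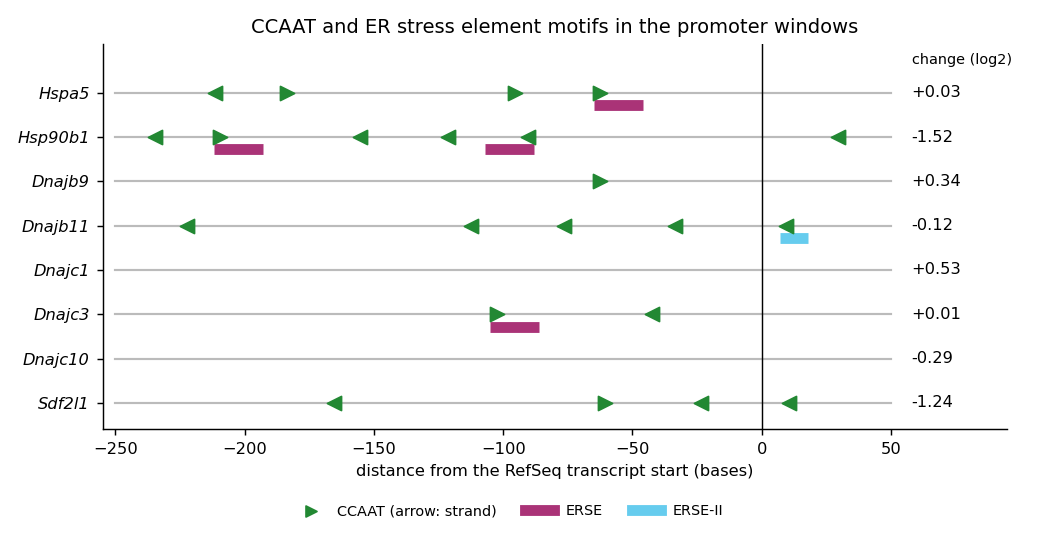
Each line is the promoter window of a member, with distance from the RefSeq transcript start in bases on the x axis, green arrows for CCAAT (pointing along its strand), purple bars for the ERSE and a blue bar for ERSE-II, and the log2 change between YAYC and Vector at the right. Among the 4 windows with at least 4 CCAAT motifs, those of Hsp90b1 (-1.52) and Sdf2l1 (-1.24) belong to the members that fell most, while Hspa5 (0.03) and Dnajb11 (-0.12) stayed near 0.

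The arrays were alike in strength. Over 59305 spots other than controls, the 75th percentile lay between 718 and 754 intensity units, 61.9% to 66.2% of these spots were well above background, and no spot was saturated. Arrays correlated at 0.989 to 0.994 within groups and at 0.987 to 0.990 between them, across probes. All 6 sat on 1 slide, whose first row held the 3 Vector arrays and YAYC 1, while YAYC 2 and 3 sat in the second, so a fit with slide row as a block sets YAYC 1 alone against the 3 Vector arrays. In that fit the spread comes from the Vector arrays and from YAYC 2 and 3, and YAYC 1 is assumed to vary like them, so its values are given for their size and without p-values. All 14 neuroblastoma markers tested (of 15), Dbh and Chga among them, were well above background on all 6 arrays. Their summed level, as a multiple of the 75th percentile, was 382 to 391 on Vector and 362 to 373 on YAYC arrays. Single markers did move, as 3 of the 14 were lower and 3 higher on YAYC arrays by limma adjusted p below 0.05. Changes of the 14 (log2, YAYC minus Vector) ran from -0.49 for Phox2a to 0.56 for Gata2. With the fold minimum given below, 0 of them were called. The other 8, Dbh (-0.06) and Chga (0.04) among them, did not pass the adjusted p. Of 14 markers of fibroblasts, leukocytes, endothelium, epithelium, glia and liver, 12 were tested, 9 were well above background on all arrays and Cdh5 and Epcam on none, at summed levels of 3.0 to 4.0 and 2.87 to 3.34. The brightest was the leukocyte marker Csf1r, with a Vector mean of 1.41 (log2, relative to the 75th percentile). Of the fibroblast markers Pdgfra rose (1.29), Col1a1 fell (-0.77) and Col1a2 did not pass (-0.10). Pdgfra and Col1a1 were dim, with Vector means of -4.58 and -4.53 on that scale. The part of such cells in the results below was not tested.

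The targeted subunits were checked first. Values here are normalized signals, log2 of the processed intensity minus the 75th percentile of the same array, and a change is YAYC minus Vector on that log2 scale. Nfyc was 4.0, 3.93 and 3.98 on the Vector arrays and 2.12, 2.20 and 2.18 on the YAYC arrays, and Nfya was 0.14, 0.15 and 0.21 against -0.66, -0.52 and -0.59. Both lay lower on every YAYC array, at 28.6% and 59.1% of the Vector level. Nfyb, the subunit not targeted, rose by 0.83 to 0.93 on its 3 probes.

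Among the 10 members, Hsp90b1 and Sdf2l1 fell and none rose, where a call needed an adjusted p below 0.05 from limma over all probes and a change of more than 1.5-fold. These 2 calls of 10 stand beside 8.90% of all genes called, 5.00% lower and 3.91% higher. In numbers, 824 genes were called lower and 644 higher, and this split moved with the processing, to 1175 and 382 when arrays were scaled by their median and to 566 and 292 after normexp background correction. By adjusted p alone, without the fold minimum, 4 members were lower and 2 higher, beside 15.8% and 15.7% of all genes and 31.5% in all. The Vector and YAYC arrays did not overlap for 8 members, lower in 6 and higher in 2, beside 54.7% of all genes (27.1% lower and 27.7% higher). The median change of the members was -0.15 and that of all genes 0.0053, with a middle range of -0.19 to 0.20. Hsp90b1 and Sdf2l1 thus had large decreases. Smaller changes that passed the adjusted p alone were -0.33 for Sil1, -0.29 for Dnajc10, 0.34 for Dnajb9 and 0.53 for Dnajc1. The other 4 members did not pass.

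**Figure D2:**
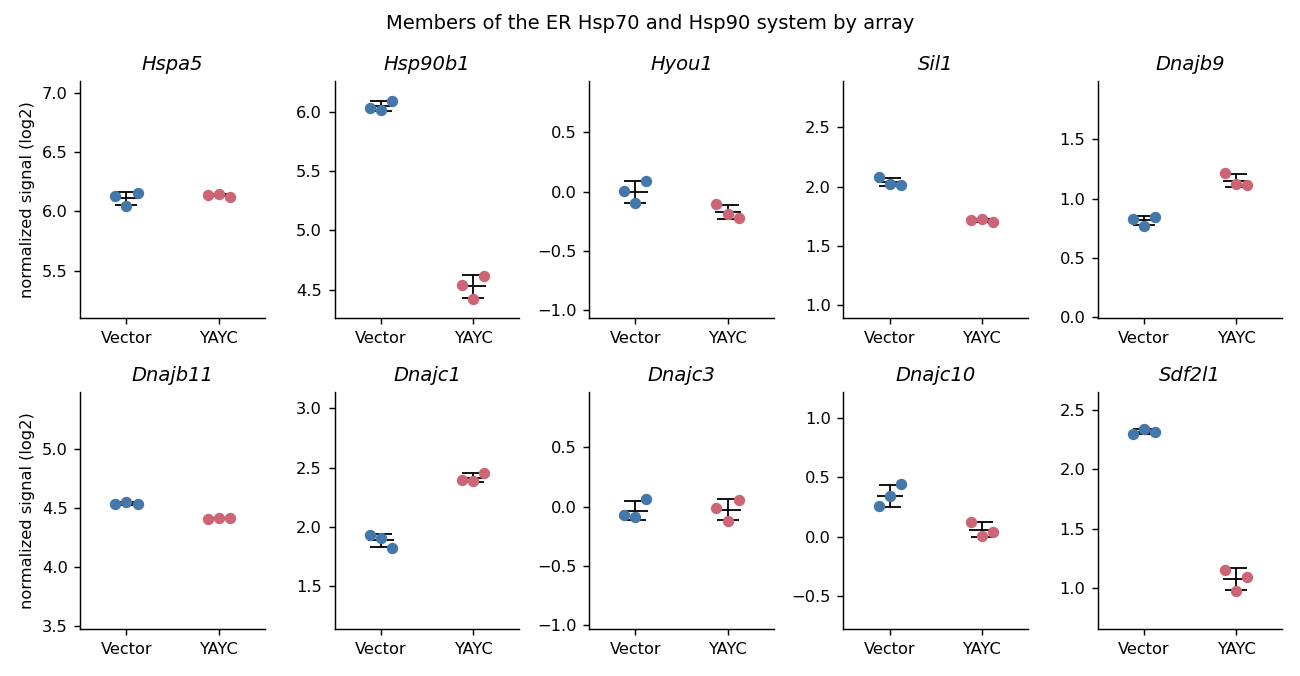
Normalized signal (log2) of each member on the 3 Vector and 3 YAYC arrays, each panel spanning 2 log2 units, with points for arrays, the long dash for the mean and bars for the SD. The YAYC points of Hsp90b1 (4.42 to 4.62) and Sdf2l1 (0.97 to 1.15) lie far under the Vector points, while those of Hspa5 and Dnajc3 overlap them.

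Hsp90b1 fell the most of the members. The signal of Hsp90b1 (probe A_52_P624149) was 6.03, 6.02 and 6.09 on the Vector arrays and 4.54, 4.42 and 4.62 on the YAYC arrays. Every YAYC array was more than 1 log2 unit under the lowest Vector array, and the spread within groups (SD 0.041 in Vector and 0.098 in YAYC, n = 3 each) was small beside this gap. The change was -1.52 with an SE of 0.065 (95% interval -1.69 to -1.36, limma adjusted p = 0.000415), which left 34.8% of the Vector level, a 2.87-fold decrease. As in any bulk sample, fewer cells with the transcript and less of it per cell cannot be told apart. Of the 16490 genes, 92 had a lower change. The first slide row alone, with 1 YAYC array, gave -1.51.

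Hspa5, the Hsp70 that works beside Grp94, did not pass the test. Its signal (probe A_55_P2076772) was 6.13, 6.04 and 6.15 on the Vector arrays and 6.14, 6.14 and 6.12 on the YAYC arrays. The groups overlapped, and the YAYC arrays lay inside the range of the Vector arrays. The change was 0.026 with an SE of 0.047 and an adjusted p of 0.737. Its 95% interval, from -0.09 to 0.15, is 0.937 to 1.11 times the Vector level. With no spot saturated, at processed intensities of 48646 to 53559, the probe was not at the upper limit of the scanner. The changes of both genes were set against each other by taking Hsp90b1 minus Hspa5 on each array. This difference changed by -1.55 from Vector to YAYC (SD 0.033 and 0.107, n = 3 each), every YAYC array lay below every Vector array, and the exact two-sided permutation p was 0.1, the smallest that 20 assignments of 6 arrays allow. Both promoters carry CCAAT motifs and the ERSE, as printed above.

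Hyou1 and Sil1 encode the exchange factors of Grp78, and Hyou1 (Grp170) is itself a large Hsp70 that holds unfolded chains. Sil1, whose loss in the woozy mouse leads to ataxia, was 2.08, 2.03 and 2.01 on the Vector arrays and 1.72, 1.72 and 1.70 on the YAYC arrays. All YAYC values lay below all Vector values. The change of Sil1 was -0.33 (SE 0.042, adjusted p = 0.00597), 79.7% of the Vector level and short of the 1.5-fold minimum, and within the first slide row it was also -0.33. Hyou1 ranged from -0.10 to 0.09 on the Vector arrays and from -0.22 to -0.11 on the YAYC arrays, apart by a narrow margin. Its change of -0.17 (SE 0.067) did not pass, with an adjusted p of 0.135.

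The 5 J protein genes had changes on either side of 0. Dnajc1 (ERdj1, a membrane J protein that sits near ribosomes at the ER) was 1.93, 1.91 and 1.82 on the Vector arrays and 2.40, 2.39 and 2.46 on the YAYC arrays. It had the highest change of the members and lay higher on every YAYC array. The change was 0.53 (SE 0.050, adjusted p = 0.00253), 1.44-fold and therefore under the minimum, although its 95% interval of 0.40 to 0.65 reached past 1.5-fold. Dnajb9 (ERdj4, which takes part in ER-associated degradation and holds the sensor IRE1 inactive) was 0.83, 0.77 and 0.85 against 1.21, 1.12 and 1.12. These groups were again apart, with a change of 0.34 (SE 0.050, adjusted p = 0.0096), or 1.26-fold. The dimmer Dnajb9 probe gave 0.13 (SE 0.133, adjusted p = 0.535) with overlapping groups, so its interval, -0.21 to 0.47, holds both 0 and the value of the brighter probe. Within the first slide row the changes were 0.51 for Dnajc1 and 0.40 for Dnajb9.

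Dnajc10 (ERdj5, a J protein with thioredoxin domains that reduces disulfides of proteins to be degraded) was 0.26, 0.34 and 0.44 on the Vector arrays and 0.13, 0.0039 and 0.04 on the YAYC arrays. The YAYC values were lower without overlap, and the change of -0.29 (SE 0.067, adjusted p = 0.0367) passed by p but not by fold. On the dimmer Dnajc10 probe the groups overlapped and the change was -0.08 (SE 0.055, adjusted p = 0.342), and within the first slide row the brighter probe gave -0.22. Leaving out any 1 array put the adjusted p of the brighter probe between 0.0511 and 0.109, and it passed in none of these 6 fits.

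Dnajb11 (ERdj3), a soluble J protein that binds unfolded chains directly, was 4.53, 4.55 and 4.53 on the Vector arrays and 4.41, 4.42 and 4.42 on the YAYC arrays. Its groups had the tightest values of all members (SD 0.0105 and 0.0036) and did not overlap, yet the shift was small. The change of -0.12 (SE 0.037, 95% interval -0.22 to -0.03) did not pass, with an adjusted p of 0.0738. Another Dnajb11 probe was well above background on 0 Vector arrays and on 1 of 3 YAYC arrays. Its groups overlapped (limma adjusted p = 0.266, 95% interval of the change -0.18 to 1.07), so no fold is read from it. Dnajc3 (p58IPK), which also limits the kinase PERK, ranged from -0.09 to 0.06 on the Vector arrays and from -0.12 to 0.05 on the YAYC arrays. The ranges nearly coincided, and the change was 0.0065 with a 95% interval of -0.17 to 0.19 (adjusted p = 0.959).

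Sdf2l1 encodes a small ER protein that forms a complex with Dnajb11. The signal of Sdf2l1 (probe A_51_P280446) was 2.30, 2.34 and 2.31 on the Vector arrays and 1.15, 0.97 and 1.09 on the YAYC arrays. As for Hsp90b1, each YAYC array lay more than 1 log2 unit under every Vector array. The change was -1.24 (SE 0.061, 95% interval -1.40 to -1.09, adjusted p = 0.000528), leaving 42.2% of the Vector level, a 2.37-fold decrease, and the first slide row gave -1.16. Its partner Dnajb11 stood at 91.8% of the Vector level, and the difference between these changes was not tested. Like Dnajb11, Sdf2l1 has at least 4 CCAAT motifs in its window.

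**Figure D3:**
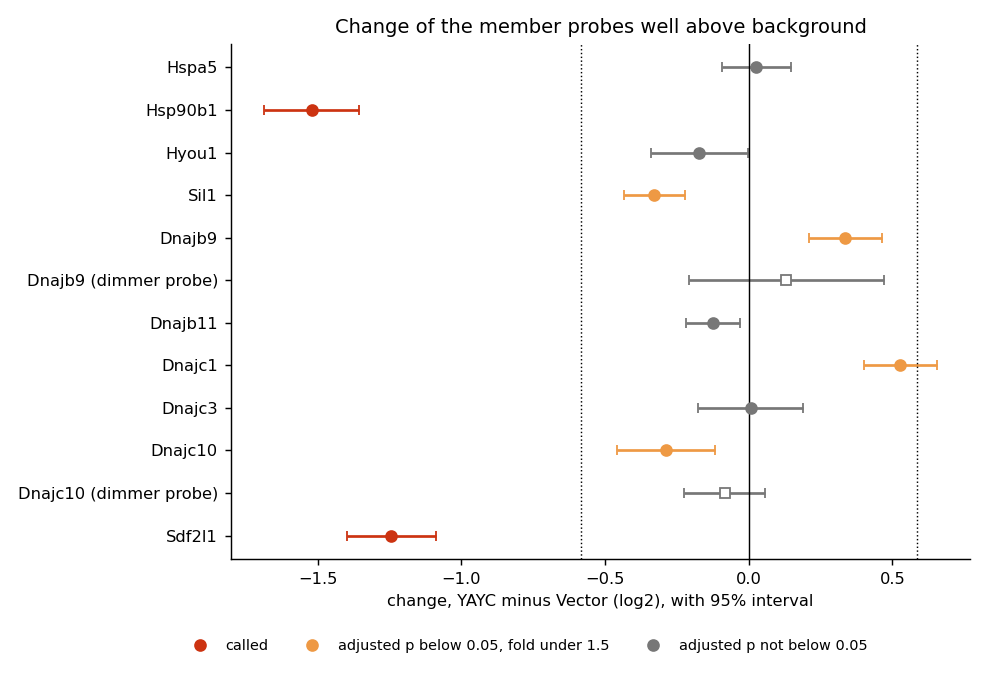
Change of each member probe well above background on all arrays (log2, YAYC minus Vector) with its 95% interval, filled circles for the probe read for the gene, open squares for a dimmer probe, and dotted lines at a 1.5-fold change. Hsp90b1 (-1.52) and Sdf2l1 (-1.24) lie past the left line with their whole intervals, and Dnajc1 (0.53) lies just short of the right one.

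All other members were also set against Hspa5, since they serve or accompany Grp78, in 9 comparisons of the per-array difference by the exact two-sided permutation test. For 8 of them the groups were apart, beside 51.1% of all genes set against Hspa5 in the same way, and the exact p was 0.1, the smallest possible, so after adjustment none can pass. The difference of changes was -1.27 for Sdf2l1, -0.35 for Sil1, -0.31 for Dnajc10, -0.20 for Hyou1 and -0.15 for Dnajb11, and 0.31 for Dnajb9 and 0.50 for Dnajc1. Dnajc3 differed from Hspa5 by -0.02 with overlapping groups and an exact permutation p of 0.8.

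Another 17 genes that act on Grp78 or Grp94 in the ER, all tested, gave 1 call, beside 8.90% of all genes. Cdnf, an ER-resident neurotrophic factor, rose by 0.65 (SE 0.063, adjusted p = 0.00266) from a dim Vector mean of -3.47. Its call was lost under quantile normalization (0.58), median scaling (0.53) and normexp (0.40, and 0.35 with quantile normalization), by the fold and not by the p. By adjusted p alone 4 of the 17 were lower and 3 higher, beside 15.8% and 15.7% of all genes, and the median was -0.09. Manf, the relative of Cdnf that binds Grp78, stood at -0.50 (adjusted p = 0.00238), under the fold minimum. Cnpy3, which helps Grp94 fold Toll-like receptors, stood at -0.48 (adjusted p = 0.00347).

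Of 17 ER folding enzymes and lectin chaperones, all tested, 3 were called lower and 0 higher, against 5.00% and 3.91% of all genes. They were Ero1b (-1.17), an oxidase that supplies disulfides, Fkbp14 (-0.91), a prolyl isomerase, and Pdia4 (-0.71), a disulfide isomerase. By adjusted p alone 11 of the 17 were lower and 0 higher, beside 15.8% and 15.7% of all genes. The median change of the list was -0.27, beside 0.0053 for all genes. Calnexin (Canx, -0.20) and calreticulin (Calr, -0.12), the lectin chaperones, did not pass.

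The Hsp70 and Hsp90 system of cytosol and mitochondria does the same work outside the ER. Of its 26 listed genes 25 were tested, and 1 was called, beside 8.90% of all genes. It was Hspa1a, the heat-inducible Hsp70, which rose by 1.28 (SE 0.115, adjusted p = 0.00218). Its probe was dim, with a Vector mean of -3.09. Normexp gave a smaller rise of 0.92, and 0.88 with quantile normalization, both still called. Hspa1a and Hspa1b are nearly identical in sequence, so this signal may belong to either. The constitutive Hspa8 (-0.05), Hsp90ab1 (-0.18) and the mitochondrial Hspa9 (0.05) and Trap1 (-0.09) did not pass. By adjusted p alone 1 of the 25 was lower and 4 higher, beside 15.8% and 15.7% of all genes, and the median was 0.046. The cytosolic Hsp90ab1 stood at an adjusted p of 0.0804, and its change was not tested against that of Hsp90b1.

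Sensors and targets of the unfolded protein response (UPR), which raises many of the members under ER stress, formed a further list of 20 genes. All were tested, and 3 were called lower and 0 higher, against 5.00% and 3.91% of all genes. These were Edem1 (-0.70), which delivers misfolded glycoproteins to degradation, Chac1 (-0.59), a glutathione-degrading enzyme raised by ATF4, and Creb3 (-0.59), a membrane-bound transcription factor. Chac1 and Creb3 lay just past the fold minimum and each missed it under quantile normalization and without YAYC 2. Chac1 also missed it under both normexp settings and with array weights, and Creb3 without Vector 2 and without YAYC 1. Leaving the slide row fit aside, Edem1 was called in every fit. The sensor Atf6 stood at -0.43 (adjusted p = 0.00809) and Xbp1 at -0.33 (adjusted p = 0.0125), each below the fold minimum. Atf4 (-0.07) and Ddit3 (-0.20, adjusted p = 0.0527), which encodes CHOP, did not pass. By adjusted p alone 8 of the 20 were lower and 3 higher, beside 15.8% and 15.7% of all genes, and the median was -0.19.

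**Figure D4:**
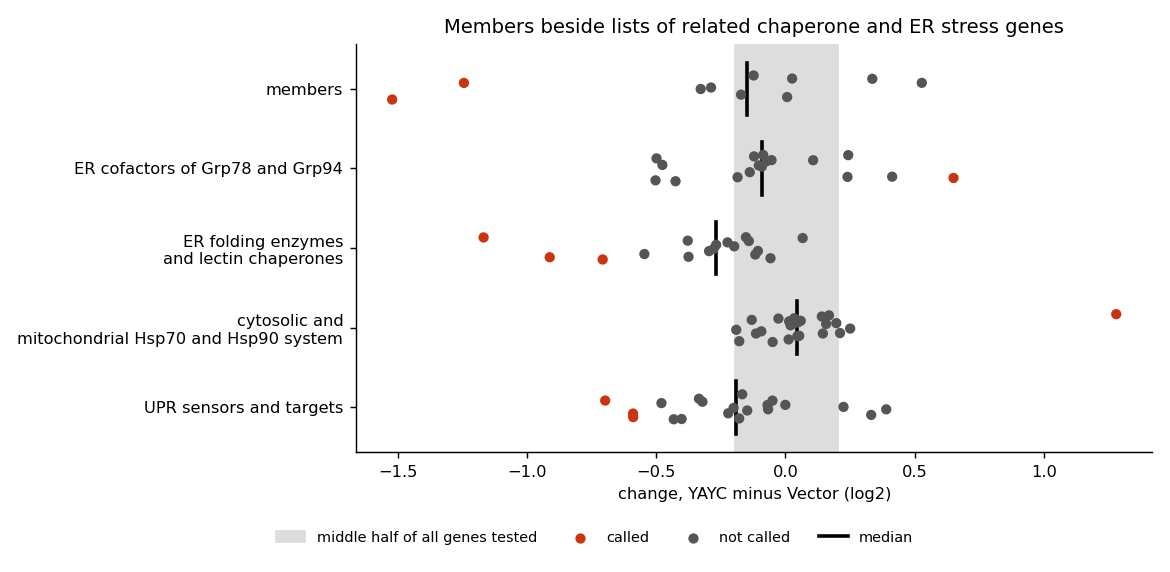
Change (log2, YAYC minus Vector) of the members and of 4 lists of related genes, with points for genes, red for called ones, black bars for list medians and a grey band for the middle 50% of all genes tested. Hsp90b1 at -1.52 is the lowest point of the 5 groups, and the cytosolic and mitochondrial genes lie around their median of 0.046 apart from Hspa1a.

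Genes with an exact ERSE in the window offer another view of the members' promoters. Of the 39 windows, 23 genes were tested, 3 of them members. Among the other 20, which were listed after their values were known, 3 were called lower (Ero1b, Xlr3a and Xlr3b) and 1 higher (Tdrd9). Of all genes, 5.00% were called lower and 3.91% higher. By adjusted p alone 6 of the 20 were lower and 1 higher, beside 15.8% and 15.7% of all genes. The median change of the 20 was -0.065. Xlr3a and Xlr3b are close copies of each other, so their signals are uncertain. Among the members with the element, Hsp90b1 fell by 1.52, while Hspa5 (0.026) and Dnajc3 (0.0065) did not pass, so an exact ERSE was present in members of either kind.

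By likeness of the normalized signal over the 6 arrays, among 13988 genes well above background on all of them, the genes most like Hsp90b1 were Ate1, an arginyltransferase (Pearson r = 0.9998, change -1.16), the spindle checkpoint kinase Bub1b (r = 0.9997, change -0.43) and the cytochrome P450 gene Cyp2c55 (r = 0.9996, change -1.29). With Vector and YAYC arrays in separate clusters, these values largely record the group difference. Those most like Hspa5 were Mtmr7 (r = 0.989), Olfr1396 (r = 0.973) and Gm10046 (r = 0.967), none of which passed. The Hspa5 groups overlapped, so these 3 values record spread between single arrays. They are the highest of 13988 genes over only 6 arrays, and whether they exceed what such picking alone gives was not tested.

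Leaving the slide row fit aside, the 2 calls held in every other setting run. Over 19 other processing settings the change of Hsp90b1 ranged from -1.64 to -1.46 and that of Sdf2l1 from -1.36 to -1.14. Without the slide row fit and its single YAYC array, Dnajc1 and Sil1 passed the adjusted p in every other fit. Dnajb9 passed in all of these but median scaling and the mean of a gene's probes. Dnajc10 passed in 7, Hyou1 in 2, Dnajb11 in 1, and Hspa5 and Dnajc3 in 0.

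**Figure D5:**
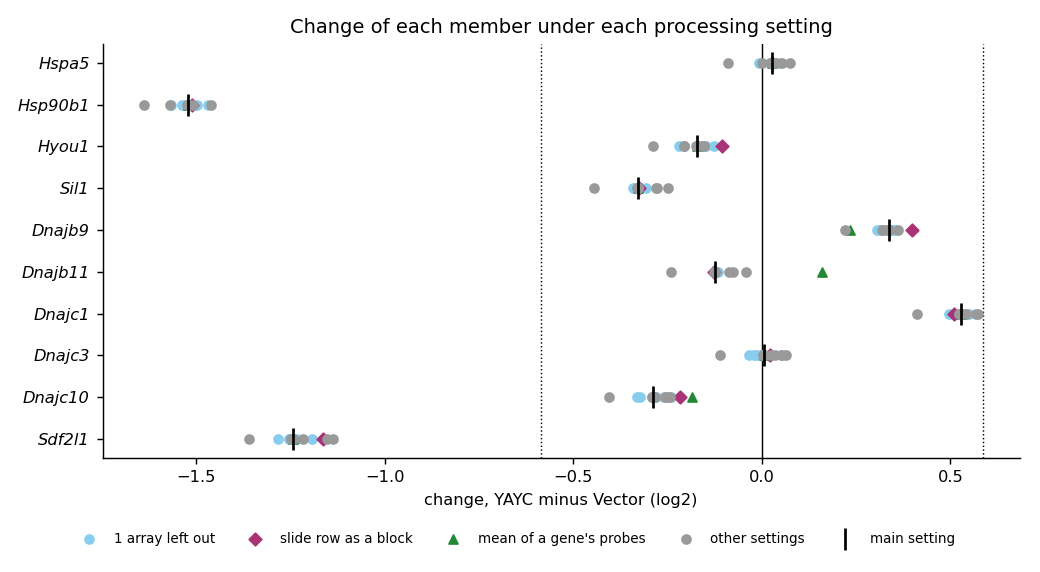
Change of each member (log2, YAYC minus Vector) under the main setting (black bar) and the alternative ones, with blue circles for fits without 1 array, a purple diamond for slide row as a block, a green triangle for the mean of a gene's probes and grey circles for other settings, and dotted lines at a 1.5-fold change. All values of Hsp90b1 and Sdf2l1 lie past the left line, those of Hspa5 and Dnajc3 fall on both sides of 0, and Dnajb11 turns to 0.16 when its probe near background is averaged in.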

How the data were processed

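RNA of 6 N2a samples (3 Vector, 3 YAYC) was measured on 1-colour Agilent SurePrint G3 mouse arrays, and groups came from the sample titles. The authors ran Feature Extraction 10.10.1.1, per the file headers, and the deposited processed signal, a background-corrected intensity on a linear scale, was used with the deposited flags. The deposited series matrix holds log2 values (column medians -0.012 to 0.018). Over 43733 single-spot probes its differences between arrays matched the normalized signal to within 0.0076, and only the constant taken off each probe stays unknown.

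Control and outlier spots were left out, the array's 75th percentile was subtracted on the log2 scale, and spots of a probe were averaged. Probes at or above the 20th percentile on all arrays of a group were kept (42126 of 55681). Symbols came from the RefSeq table of GRCm38.p6 by accession (25869 of 26392 curated mRNA probes matched), and a gene was read from its brightest tested probe. The array design uses another build, so no probe coordinates are given. YAYC was set against Vector with limma 3.58.1 under R 4.3.3 (lmFit, eBayes, two-sided, no covariate) with Benjamini-Hochberg adjustment over all tested probes. The fit was tested on simulated data. A call needed an adjusted p below 0.05 and a fold above 1.5. For a probe that no array of a group read well above background, no fold is given.

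The members, lists and tests were chosen with earlier results of these data known. Named are the members, the NF-Y subunits, up to 3 called genes per list and direction, 8 chosen chaperone and UPR genes (Hspa8, Hsp90ab1, Hspa9, Trap1, Atf6, Xbp1, Atf4, Ddit3) and the 3 genes most like Hsp90b1 and Hspa5. Manf, Cnpy3, Canx, Calr, the markers and the genes with an ERSE were named after their values were seen. Alternatives were other scalings, normexp (offset 50, on median spot signals, as the tables used here hold no mean signal), the series matrix, other filters, a variance trend, array weights, blocks, the mean of a gene's probes, no fold minimum and leaving out each array.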

Additional observations from a re-analysis of the deposited data

How the results depend on the processing

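The calls of Hsp90b1 and Sdf2l1 and the absence of a member called higher held in every setting with the fold minimum, leaving the slide row fit aside. Dropping that minimum gave 4 members lower and 2 higher, which adds Sil1 (-0.33), Dnajc10 (-0.29), Dnajb9 (0.34) and Dnajc1 (0.53). Without that minimum 2602 genes were lower and 2597 higher, 31.5% of all genes. Those passing were 7 of 17 other ER cofactors, 11 of 17 folding enzymes, 5 of 25 cytosolic and mitochondrial genes and 11 of 20 UPR genes. Scaling by the array median moved the median of all genes from 0.0053 to -0.11, put Hspa5 at -0.091 and Dnajc3 at -0.11, and gave 1175 genes lower, 382 higher and 3 ER cofactors. Quantile normalization gave 0 ER cofactors and 1 UPR gene. Normexp, added after the files were seen because the planned signal column was not at hand, gave 566 genes lower, 292 higher and 0 ER cofactors, and with quantile normalization 549 lower, 287 higher and 0 ER cofactors. Averaging a gene's probes turned Dnajb11 to 0.16 and its difference from Hspa5 to 0.13, by bringing in a probe near background, and gave differences of 0.21 for Dnajb9 and -0.21 for Dnajc10. The cause of the other shifts was not tested.

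Leaving out 1 array gave -1.57 to -1.47 for Hsp90b1 and -1.28 to -1.19 for Sdf2l1. Hspa5 ranged from -0.0066 (without Vector 2) to 0.048, Dnajc3 from -0.034 to 0.055 (below 0 without Vector 1, Vector 2, YAYC 1 or YAYC 3), and the difference of Dnajc3 from Hspa5 from -0.065 to 0.033 (above 0 without Vector 3 or YAYC 2). Called UPR genes numbered 1 to 3, with 1 without YAYC 2, and called genes 747 to 831 lower and 548 to 607 higher. With the replicate block Hsp90b1 stayed at -1.52 (adjusted p = 0.0222) and Sdf2l1 at -1.24 (adjusted p = 0.0223), with 765 genes lower and 518 higher, and no member call changed. Deviations of same-numbered arrays correlated at 0.0025 to 0.067, so the numbers were not taken to pair samples. Slide row as a block, with its single YAYC array, gave -1.51 for Hsp90b1 and -1.16 for Sdf2l1. The 3 arrays per group and, for the dimmer probes, low signal over background limit what small changes can be told from 0.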
